A study of Mus musculus with 6 samples.

Results

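Tetraspanins are small proteins with several membrane-spanning segments that gather integrins, immunoglobulin-type proteins and proteases into patches at the cell surface and on vesicles. In epithelial tumours they are studied for their part in adhesion, motility and vesicle release. The 7 genes described here, of 54532 in the table, were taken by name: Tspan11, Tspan8, Cd9, Cd63, Cd81, Cd82 and Cd151. They were chosen by name with the CTC and PT levels of these libraries known, Tspan11 being among the genes that DESeq2 had placed lower in CTC, so their differences are given as a description and no test of them is read as support. Of the 7, 6 had enough reads to enter the whole-table fit and Tspan8 did not.

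RNA was sequenced from tumour cells of untreated balb/c mice that carried the mammary tumour 2208L, known as a transplantable model. The CTC group held 3 libraries of circulating tumour cells propagated from peripheral blood. The PT group held 3 libraries of tumour cells obtained by dissociating the primary tumours of the same mice and enriching for them, numbered 1 to 3 to match. Propagation is stated for CTC and not for PT, so handling and source cannot be told apart, and neither the enrichment nor the propagation is described further. The sources used here give no age or sex of the mice.

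Library totals lay between 23845953 and 27897320 counts. A floor of 3 counts equalled 0.108 to 0.126 CPM, here the scale on which every library has the same total. All other CPM values were TMM-scaled (to effective library size) unless stated, so this floor is not on quite the same scale. Of 13874 genes tested between CTC and PT, edgeR's quasi-likelihood test called 0 (0.0%) at an adjusted p under 0.05, with 919 (6.62%) at an unadjusted p under 0.05. limma-voom called 0, and DESeq2 called 89 (0.595%) of the 14961 genes to which it gave an adjusted p. The tumour cell label was matched by the epithelial genes: Krt8, Krt18, Epcam, Cdh1 and Cldn3 summed to between 2090 and 5060 CPM per library. Leukocyte, T and NK cell, B cell, erythroid and endothelial markers summed to at most 3.76 CPM in any library, led by Coro1a, Cd3e, Cd79a, Alas2 and Tie1 with 197, 22, 30, 42 and 68 counts over the 6 libraries. Ptprc, which encodes CD45, had 12 counts over the 6 libraries, and Adgre1, Ly6g and C1qa had 0.

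The promoters of 4 genes are shown because they span the range of levels: Tspan11 was the most variable gene of the family, Tspan8 was close to absent, and Cd9 and Cd151 were abundant in all libraries. Each sequence is a RefSeq window of 300 bases (250 before to 50 after the annotated start, GRCm38.p6), read 5′ to 3′ on the gene's strand, with CG dinucleotides in capitals. Tspan11 lies at chr6:127887372-127887671 (plus strand), Tspan8 at chr10:115817034-115817333 (plus), Cd9 at chr6:125494711-125495010 (minus) and Cd151 at chr7:141467112-141467411 (plus, the first of its 2 listed windows).
Tspan11: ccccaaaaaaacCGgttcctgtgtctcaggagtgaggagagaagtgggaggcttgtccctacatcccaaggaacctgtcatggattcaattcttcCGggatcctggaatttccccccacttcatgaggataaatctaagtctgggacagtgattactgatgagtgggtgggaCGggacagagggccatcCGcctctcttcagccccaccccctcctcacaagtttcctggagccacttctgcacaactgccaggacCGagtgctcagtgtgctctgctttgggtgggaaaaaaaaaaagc
Tspan8: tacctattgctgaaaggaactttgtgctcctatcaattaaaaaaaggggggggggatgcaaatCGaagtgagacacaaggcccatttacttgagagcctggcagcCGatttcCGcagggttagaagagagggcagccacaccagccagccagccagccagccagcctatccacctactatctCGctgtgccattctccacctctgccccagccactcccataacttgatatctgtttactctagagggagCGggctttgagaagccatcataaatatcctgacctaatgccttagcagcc
Cd9: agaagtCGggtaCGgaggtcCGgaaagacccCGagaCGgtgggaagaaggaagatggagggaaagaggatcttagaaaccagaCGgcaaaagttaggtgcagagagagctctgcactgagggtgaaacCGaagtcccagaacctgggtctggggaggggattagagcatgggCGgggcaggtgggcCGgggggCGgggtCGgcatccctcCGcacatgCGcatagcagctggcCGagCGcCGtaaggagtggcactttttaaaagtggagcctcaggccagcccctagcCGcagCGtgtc
Cd151: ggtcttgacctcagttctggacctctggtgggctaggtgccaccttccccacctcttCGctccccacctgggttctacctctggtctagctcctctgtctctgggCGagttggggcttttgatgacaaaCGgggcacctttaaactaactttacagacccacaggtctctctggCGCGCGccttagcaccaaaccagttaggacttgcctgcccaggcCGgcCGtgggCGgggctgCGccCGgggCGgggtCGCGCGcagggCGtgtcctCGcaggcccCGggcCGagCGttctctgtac

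The Tspan11 and Tspan8 windows held 5 CG each, and 62.0% of the 32851 RefSeq promoter windows held at least as many. The Cd9 and Cd151 windows held 18 and 20 CG, reached by 29.7% and 26.5% of windows. The second Cd151 window held 4 CG. The windows of Cd82 held 16, 15, 11 and 4 CG. Cd81 had 23 CG, more than Cd9 or Cd151, but stood lower than both. Its highest library was at 70.3 CPM, and the lowest libraries of Cd151 and Cd9 were at 97.5 and 227 CPM. CG number therefore did not order these 3 genes by level. The window of Cd63, also abundant, had 6 CG. It lies inside the gene, at chr10:128909095-128909394, and not at its deposited start of 128900989, so it is not set against level.

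Tspan11, a little studied tetraspanin, was lower in every CTC library than in any PT library, with a wide spread. It lies on chromosome 6 from 127887589 to 127953977 (ENSMUSG00000030351, GRCm38). It was at 2.13, 24.5 and 33.9 CPM in CTC replicates 1, 2 and 3, after TMM scaling (scaling to effective library size), and at 301, 222 and 45.6 CPM in PT replicates 1, 2 and 3. The groups did not overlap, but CTC replicate 3 and PT replicate 3, from the same mouse, lay close together. The means were 20.2 ± 16.3 CPM over the CTC libraries and 189.8 ± 131 CPM over those of PT (SD, n = 3 each), a 9.41-fold difference. The log2 fold change, CTC minus PT, was -3.23 (SE 1.01, 95% interval -5.57 to -0.90). Per mouse the log2 difference was -7.09, -3.18 and -0.43, so its size differed widely while its sign did not. The antisense gene Gm15870 overlaps Tspan11 and had at most 10 counts in any library.

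Whether Tspan11 passed the threshold differed between tools. Its adjusted p was 0.726 in edgeR and 0.766 with the mouse as a replicate block, 0.00617 in DESeq2 and 0.279 in DESeq2 with the block. In edgeR without a filter on low counts it was 0.00255. The basal keratin and Trp63 list, 4 of 4 detected, was also highest in PT replicate 1, at 6280 CPM, and lowest in CTC replicate 1, at 190 CPM. Krt14 made up most of this sum (5266 CPM in PT replicate 1), while Trp63 was highest in CTC replicate 3, at 150.7 CPM against 60.3 CPM in PT replicate 1, and Krt17 was lowest in PT replicate 3. In the other libraries that sum and Tspan11 took different orders: the list stood at 305 and 1400 CPM in CTC replicates 2 and 3 and at 403 and 936 CPM in PT replicates 2 and 3. Its part in the Tspan11 difference was not tested, and in such bulk libraries fewer cells of a type and less RNA per cell cannot be told apart.

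**Figure D1:**
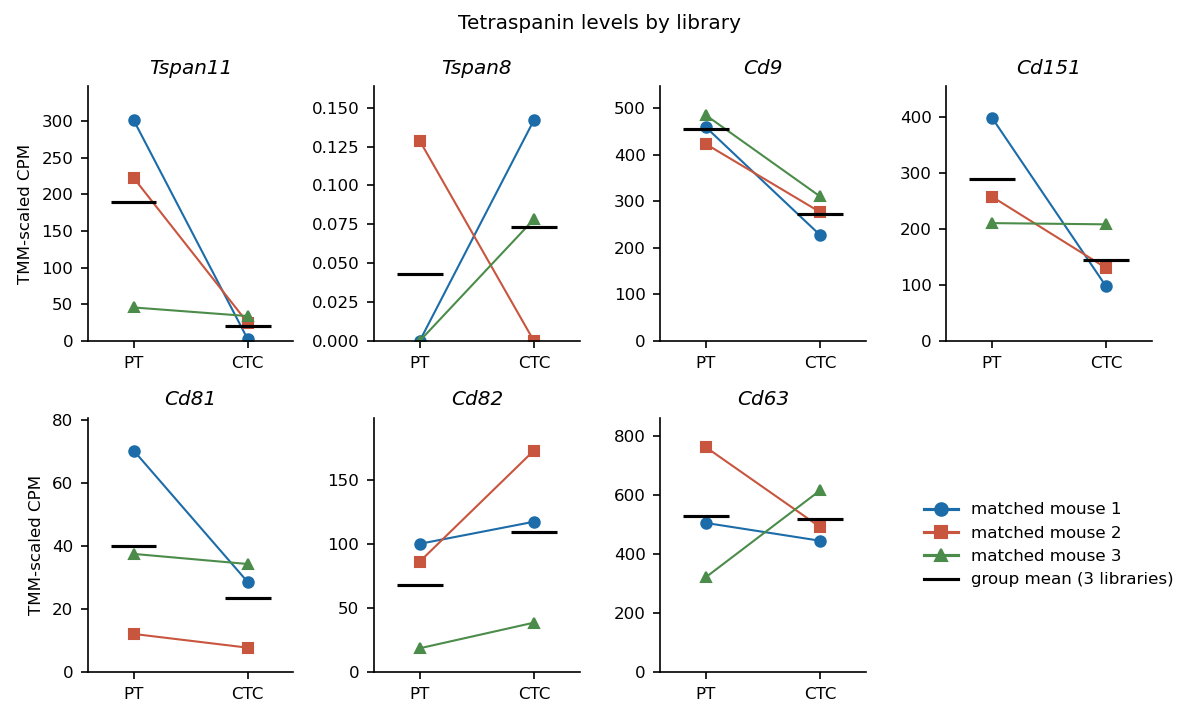
TMM-scaled CPM (vertical axis, from 0, a separate scale per panel) of the 7 tetraspanin genes in PT and CTC libraries; lines join the libraries of a mouse and black bars are group means of 3 libraries. Tspan11, Cd9 and Cd81 were lower in CTC in each mouse, Cd81 by only -0.13 on the log2 scale in mouse 3. Cd151 was lower in mice 1 and 2 and nearly level in mouse 3 (-0.01 on the log2 scale). Cd82 was higher in each mouse, and Tspan8 stayed at or below 0.142 CPM.

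Cd9, a broadly expressed epithelial tetraspanin that binds EWI proteins and integrins, was lower in CTC by a small and even step. It lies on chromosome 6 from 125460266 to 125494791 (ENSMUSG00000030342). It was at 227, 277 and 310.2 CPM in the CTC libraries, against 459, 423 and 484.5 CPM in the PT libraries (replicates 1, 2 and 3). The lowest PT library stood above the highest CTC library, and the spread within each group was small. The means were 271.4 ± 41.7 and 455.3 ± 31.1 CPM (SD, n = 3 each), and the log2 fold change was -0.75 (SE 0.25, 95% interval -1.33 to -0.17). Per mouse it was -1.01, -0.61 and -0.64. The antisense gene Gm28809 overlaps Cd9 and had at most 74 counts in a library, against 6402 or more for Cd9.

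Cd151, the tetraspanin that holds laminin-binding integrins, was lower in CTC in mice 1 and 2 and level in mouse 3. The gene lies on chromosome 7 from 141467392 to 141471473 (ENSMUSG00000025510). It was at 97.5, 130.4 and 208.3 CPM in the CTC libraries, against 399, 257.8 and 210.5 CPM in the PT libraries. The groups were apart by the small gap between the replicate 3 libraries, and they overlapped when counts were scaled to library totals (222.8 CPM in CTC replicate 3 and 212.7 CPM in PT replicate 3) or by upper quartile. The log2 fold change was -0.99 (SE 0.38, 95% interval -1.87 to -0.11), and it was -0.45 without replicate 1 of both groups and -1.53 without replicate 3 of both groups. Per mouse it was -2.03, -0.98 and -0.01. Gm10575, on the opposite strand, overlaps Cd151 and had at most 44 counts in a library.

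Cd81, a common marker of extracellular vesicles, followed the mouse more than the source. The gene lies on chromosome 7 from 143052739 to 143067934 (ENSMUSG00000037706). It was at 28.6, 7.84 and 34.4 CPM in the CTC libraries, against 70.3, 12.2 and 37.6 CPM in the PT libraries. Both libraries of mouse 2 were the lowest of their group, and the groups overlapped. Per mouse the log2 difference was -1.29, -0.63 and -0.13. The log2 fold change of -0.76 (SE 0.71, 95% interval -2.39 to 0.87) was -0.08 without PT replicate 1, -0.36 without CTC replicate 2 and -1.21 without PT replicate 2.

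Cd82, known as the metastasis suppressor KAI1, was the 1 tested member with a positive log2 fold change. It lies on chromosome 2 from 93419111 to 93463140 (ENSMUSG00000027215). It was at 117.3, 172.7 and 38.7 CPM in the CTC libraries, against 100.1, 86.3 and 18.8 CPM in the PT libraries. Both libraries of mouse 3 were the lowest, the groups overlapped, and CTC was the higher library in each mouse, by 0.23, 1.00 and 1.04 on the log2 scale. The log2 fold change between the group means was 0.68 (SE 0.69, 95% interval -0.91 to 2.27), and it was 0.17 without CTC replicate 2, 1.08 without CTC replicate 3 and 0.23 without PT replicate 3.

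Cd63, the tetraspanin of late endosomes and lysosomes, had nearly the same mean in both groups. The gene lies on chromosome 10 from 128900989 to 128912822 (ENSMUSG00000025351). It was at 446, 493 and 616.5 CPM in the CTC libraries, against 506.5, 763 and 322.5 CPM in the PT libraries, where it held both the highest and the lowest library. The log2 fold change was -0.03 (SE 0.36, 95% interval -0.86 to 0.79), and its sign turned to 0.31 without PT replicate 2 and was -0.29 without PT replicate 3. A processed pseudogene, Cd63-ps, took between 5.30% and 6.19% as many counts as Cd63 in the 6 libraries, so the level of Cd63 is uncertain by the way reads were divided between near-identical copies.

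Tspan8, which is often studied as a driver of motility and metastasis in carcinomas, was at the edge of detection. The gene lies on chromosome 10 from 115816832 to 115849893 (ENSMUSG00000034127). It had 4, 0 and 2 counts in CTC and 0, 3 and 0 counts in PT, 6 and 3 in all, with a highest level of 0.142 CPM. At this depth no difference was detectable, and no fold was computed because all libraries but 1 lay at or under the floor of 3 counts.

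Of the 6 tested members, 3 were lower in CTC without overlap between groups (6.16% of all genes tested were) and 0 were higher without overlap (5.95%). With no tolerance for near-equal values, 4 were lower in CTC in each of the 3 mice (15.3% of all genes tested) and 1 was higher (15.4%). Cd151 is among the 4 by a difference of only -0.01 in mouse 3, which turned to the other side when counts were scaled to library totals. The median log2 fold change of the members was -0.75, beside 0.05 for all genes tested. Because the genes were chosen with this comparison known, nothing is read from these counts.

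Levels were compared between genes as TPM, in which counts are divided by the deposited gene length and scaled to a common total. In this order Cd9 (333 to 668 TPM over the 6 libraries) and Cd63 (247 to 503 TPM) led, followed by Cd151 (107 to 361 TPM), Cd82 (17.6 to 151 TPM), Tspan11 (1.20 to 140.2 TPM), Cd81 (7.13 to 60.5 TPM) and Tspan8 (0 to 0.25 TPM). Cd9 was above Cd63 in 3 of 6 libraries, so these neighbours in the order were not separated beyond their spread. Cd63 was above Cd151 in 5 of 6 libraries, Cd151 above Cd82 in 4 and Tspan11 above Cd81 in 3. Cd82 was above Tspan11 in 3 of 3 CTC libraries and in 0 of 3 PT libraries. Together the 7 genes made up between 55.4% and 65.0% of the TPM of the 31 tetraspanin genes.

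**Figure D2:**
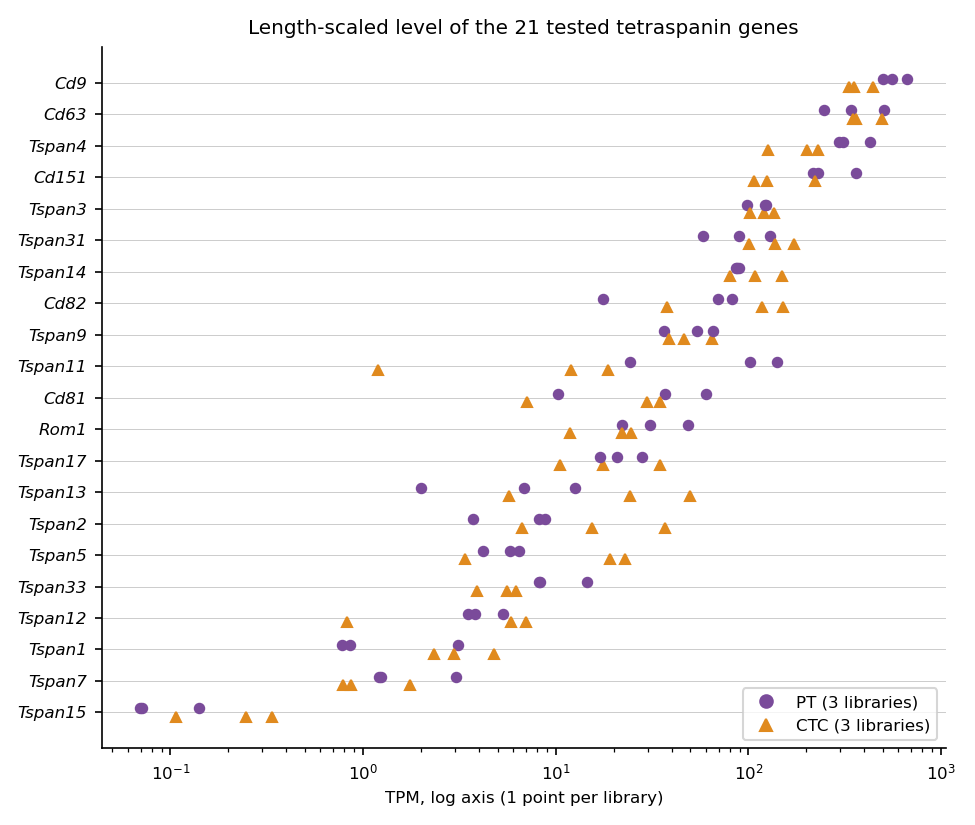
TPM on a log axis (horizontal) for the 21 tetraspanin genes with enough reads for the fit, ordered by mean TPM; each point is 1 library, circles PT and triangles CTC. Cd9 and Cd63 overlap at the top, and Tspan11 spans 1.20 to 140.2 TPM.

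The family beyond the 7 was counted over 24 genes, of which 15 were tested. edgeR called 0 of the 15, with 2 (Tspan4 and Tspan33) at an unadjusted p under 0.05 (6.62% of all genes tested were). DESeq2 called 0, and with the replicate block it called Tspan13 higher (adjusted p = 0.0438), beside 0.817% of genes called higher and 0.902% called lower (1.72% in all). Their median log2 fold change was -0.06. By TPM the highest of these genes were Tspan4, at a mean of 264.9 TPM over the 6 libraries, Tspan3 at 116.9, Tspan31 at 114.6, Tspan14 at 100.1 and Tspan9 at 50.9. Tspan3 was at 179.7 ± 29.6 CPM over the CTC libraries and 190.5 ± 24.3 CPM over those of PT (SD, n = 3 each), the narrowest range among the 21 tested family genes at 1.49-fold between its highest and lowest library.

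Tspan4, a tetraspanin of migrasomes, lies next to Cd151 on chromosome 7 and showed a like pattern. It was at 92.2, 166.4 and 170.2 CPM in the CTC libraries, against 377, 277 and 228 CPM in the PT libraries, without overlap between groups. Its log2 fold change was -1.04 (SE 0.34), and -0.57 without replicate 1 of both groups. The 2 genes are 3.77 kb apart, and their log2 CPM correlated at 0.95 over the 6 libraries, which share the same depth and composition. Such a value was not particular to the adjacent pair. Tspan4 correlated at 0.98 with Tspan11 and at 0.90 with Cd9, both on chromosome 6. Of 9395 protein-coding genes, 87 exceeded 0.95 with Cd151. Polr2l, a polymerase subunit gene between them, had a log2 fold change of -0.29. Tspan11 and Tspan9, another adjacent pair at 7.42 kb, correlated at -0.08: Tspan9 was at 107.6, 87.6 and 65.4 CPM in the CTC libraries, against 73.0, 134.2 and 95.3 CPM in the PT libraries.

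The largest positive log2 fold changes outside the 7 were in Tspan13, Tspan2 and Tspan5, each with overlapping groups. Tspan13 was at 40.9, 23.0 and 4.81 CPM in the CTC libraries, against 6.82, 12.8 and 1.74 CPM in the PT libraries. Its difference of 1.69 on the log2 scale (SE 0.88) was 0.97 without CTC replicate 1 and 0.96 without replicate 1 of both groups. Tspan2 was at 58.7, 28.1 and 10.8 CPM in the CTC libraries, against 7.17, 17.1 and 13.9 CPM in the PT libraries, a difference of 1.36 on the log2 scale that was 0.62 without CTC replicate 1 and 0.35 without replicate 1 of both groups. For Tspan5 it was 1.32, and 0.78 without CTC replicate 2. The largest negative ones beside Tspan4 were in Tspan33 (-1.14, SE 0.41, without overlap) and Rom1 (-0.95, SE 0.48, with overlap).

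Tspan5, Tspan10, Tspan14, Tspan15, Tspan17 and Tspan33 form the TspanC8 group, which carries the protease ADAM10 to the surface. Of its 5 tested genes 3 had positive and 2 negative log2 fold changes, with a median of 0.21. Adam10 was at 112.3 ± 47.4 CPM over the CTC libraries and 81.2 ± 15.6 CPM over those of PT (SD, n = 3 each), with overlap.

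Leukocyte tetraspanins were near 0. The highest library of Cd37 was at 0.539 CPM, that of Cd53 at 0.196 and that of Tspan32 at 0.307. These were 13, 5 and 8 counts, above the floor of 3 counts.

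Of 16 partner genes (laminin-binding integrins, EWI and other immunoglobulin-type proteins, claudins, Epcam, ADAM proteases and others), all were tested and edgeR called 0, with 3 at an unadjusted p under 0.05 (6.62% of all genes tested were). DESeq2 also called 0, and with the replicate block it called Itgb4 lower (adjusted p = 0.0473), beside 0.902% of all genes called lower in that fit. Log2 fold changes were positive for 10 and negative for 6, with a median of 0.28. Itgb4, the integrin beta 4 chain of hemidesmosomes, was at 136.0, 112.3 and 222.3 CPM in the CTC libraries, against 712.5, 195.9 and 465.9 CPM in the PT libraries. The difference was -1.55 on the log2 scale (SE 0.50), with overlap between groups and a lower CTC library in each mouse (-2.39, -0.80 and -1.07). Itgb1, the beta 1 chain, was at 1386, 700.9 and 566.8 CPM in the CTC libraries, against 376.3, 424.2 and 535.3 CPM in the PT libraries. The difference was 0.99 on the log2 scale (SE 0.39), without overlap. Per mouse it was 1.88, 0.72 and 0.08, so mouse 3 was nearly level. The alpha chains of the list, Itga3, Itga6 and Itga7, had log2 fold changes of -0.32, 0.50 and 0.27, all with overlap.

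Igsf8, which encodes EWI-2, a direct partner of Cd9 and Cd81, was at 121.8, 221.7 and 230.2 CPM in the CTC libraries, against 699.8, 346.3 and 297.0 CPM in the PT libraries. Its groups did not overlap and its log2 fold change was -1.23 (SE 0.42). Ptgfrn, which encodes the related EWI-F, was at 285.0 CPM on average in CTC and 222.2 CPM in PT, with overlap. For Igsf3, an immunoglobulin-type gene related to them, the log2 fold change was -0.70. Zdhhc2, an enzyme that attaches palmitate to tetraspanins, and Cldn1 had log2 fold changes of 1.42 (SE 0.67) and 1.34 (SE 1.13) with overlapping groups, both with their highest library in CTC replicate 1.

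Of 15 genes of multivesicular bodies, vesicle release and late endosomes, 14 were tested, and Hgs was not, since it had at most 9 counts and is listed under 2 overlapping entries. edgeR called 0, with Flot1 and Flot2 at an unadjusted p under 0.05, beside 6.62% of all genes. DESeq2 called 0, and with the replicate block it called Flot1 lower (adjusted p = 0.0468), where 0.902% of all genes were called lower. Log2 fold changes were positive for 7 and negative for 7, with a median of -0.01. Flot1, a scaffold protein of membrane rafts, was at 13.1, 25.7 and 46.2 CPM in the CTC libraries, against 81.5, 75.2 and 67.5 CPM in the PT libraries. Its groups lay apart and its log2 fold change was -1.40 (SE 0.44). For Flot2, its partner, it was -1.01 (SE 0.41). The Flot2 groups overlapped, while per mouse the log2 difference was -1.15, -1.01 and -0.81, and the adjusted p was 0.499 in DESeq2 and 0.0624 with the replicate block. Lamp1, a late endosomal and lysosomal membrane protein like Cd63, was at 1267 ± 249 CPM over the CTC libraries and 1609 ± 259 CPM over those of PT (SD, n = 3 each). Lamp2, Sdcbp and Vps4b had the highest log2 fold changes of the list, at 0.36, 0.31 and 0.24.

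**Figure D3:**
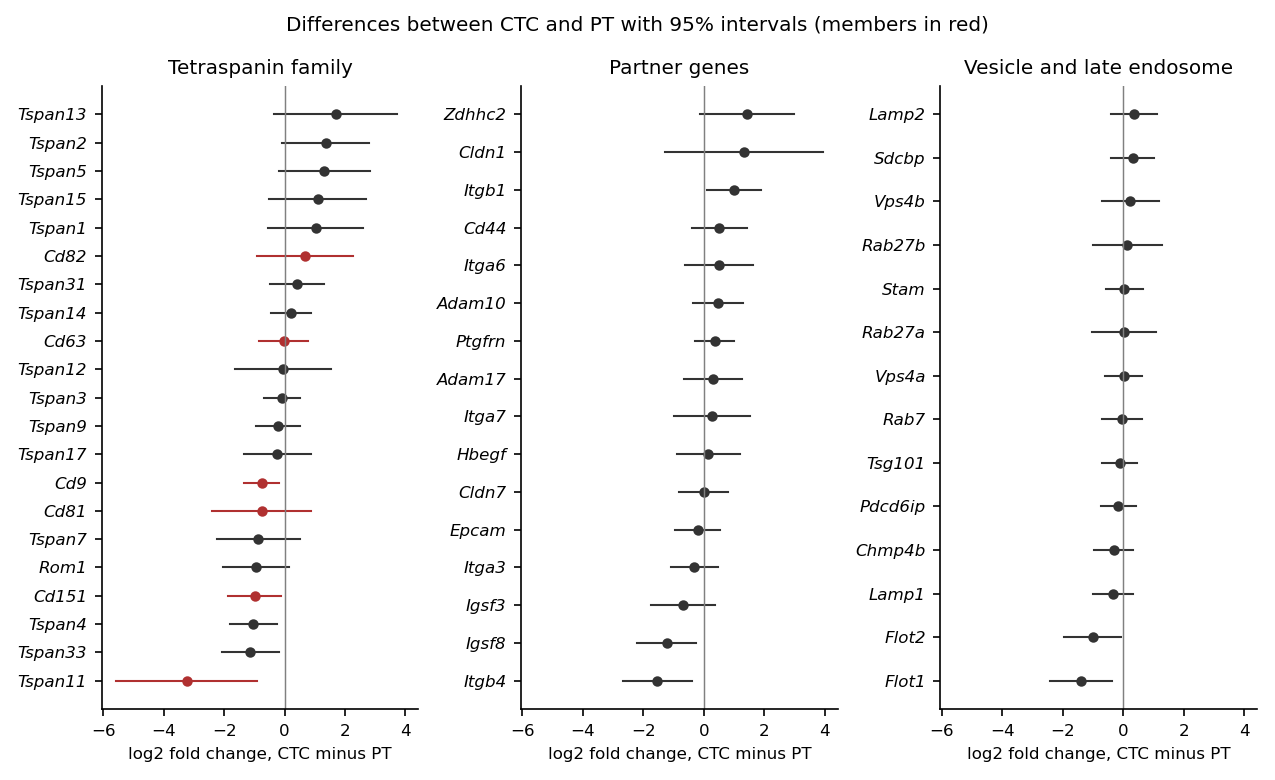
Log2 fold change of CTC minus PT (horizontal axis) with 95% intervals from edgeR for the tested genes of the tetraspanin family, partner and vesicle lists, with the 6 tested members in red. Tspan11 lies farthest from 0 at -3.23 with a wide interval (-5.57 to -0.90), and the vesicle genes other than Flot1 and Flot2 lie between -0.34 and 0.36.

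The genes most like Tspan11 were sought among 9395 protein-coding genes whose mean log2 CPM reached 3, by Pearson correlation of log2 CPM over the 6 libraries. The highest were Wdr54 (0.994), B9d1 (0.993), Scly (0.992), Nr1h2 (0.991) and Tmem219 (0.991). With 6 points that share library and depth, 138 of these genes exceeded 0.95. Their differences were smaller than that of Tspan11, with log2 fold changes from -1.22 in Wdr54 to -0.69 in Tmem219. Among the members, Tspan11, Cd9 and Cd151 correlated at 0.85 to 0.93 with each other, while Cd82 correlated with none of these above -0.13. No such list was made for Tspan8, whose counts were too low.

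Neighbouring genes were examined because runs of genes on a chromosome can differ together between tumour libraries. For each member the median deviation of tested genes within 2 Mb from their own mean was taken per library. Of all 13874 genes tested, 7504 had positive and 6370 negative log2 fold changes. Around Tspan11, 20 of 27 neighbours were negative, with a median log2 fold change of -0.35. No library's median there deviated by more than 0.40, against -4.26 for Tspan11 itself in CTC replicate 1. Around Cd9, 39 of 46 neighbours were negative, with a median of -0.40 beside -0.75 for Cd9. Around Cd151, 52 of 62 were negative, with a median of -0.55 beside -0.99 for Cd151.

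Around Cd9 and Cd151 the neighbours were also lowest in CTC replicate 1, at -0.55 and -0.50. The nearest tested protein-coding genes by midpoint, Plekhg6 and Ndufa9 (106 and 1360 kb away) beside Cd9 and Cracr2b and Polr2l (5.58 and 4.06 kb away) beside Cd151, had log2 fold changes of -0.89, -0.74, -1.40 and -0.29. Around Cd81, 49 of 62 neighbours were negative, with a median of -0.41. Around Cd82 13 of 30 were negative (median 0.09), and around Cd63 34 of 82 (median 0.07). Around Tspan8, 18 of 18 neighbours were positive, with a median log2 fold change of 1.05 and a deviation of 1.11 in CTC replicate 1, while Tspan8 itself stayed near the floor. Its nearest tested genes, Zfc3h1 and Cnot2, had log2 fold changes of 0.87 and 0.97. The windows of Cd81 and Cd151 overlap on chromosome 7, and those of Cd9 and Tspan11 overlap on chromosome 6. Their counts and medians are therefore not separate observations. The part of these neighbourhoods in the members' differences was not tested.

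**Figure D4:**
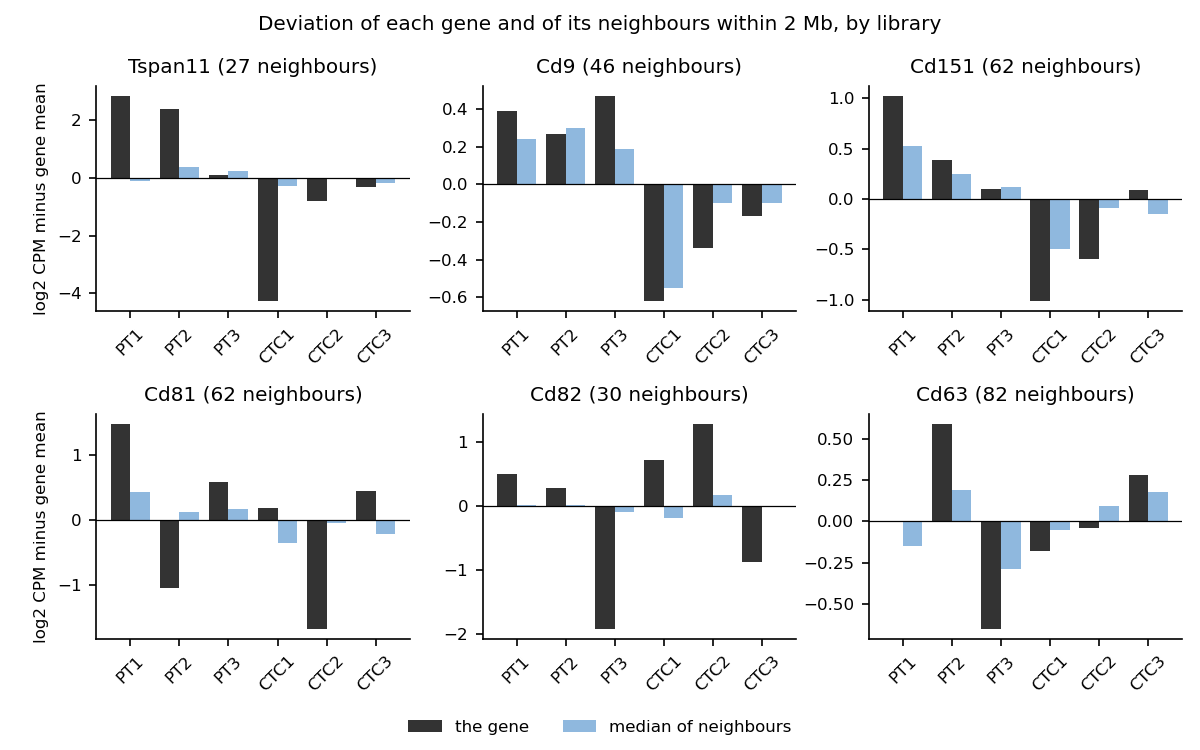
Log2 CPM minus the gene's mean over 6 libraries (vertical axis) for each tested member (dark bars) and the median of tested genes within 2 Mb (light bars), by library, on a separate scale per panel. The neighbours of Cd9 and Cd151 lie on the same side of 0 as the gene in most libraries, and those of Tspan11 deviate by at most 0.40.

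Base composition and other cells were set beside these values. The trend of log2 CPM on transcript GC content differed between libraries: at 58.2% GC it was -0.23 in CTC replicate 1 and 0.41 in PT replicate 1. Tspan11 had 57.2% GC, Cd151 54.8% and Cd9 45.9%. With this trend removed the log2 fold changes were -2.95, -0.81 and -0.94, so the direction stood for all 3 genes. Cd9, Cd63 and Cd81 are expressed by many other cells too, fibroblasts and platelets among them. The fibroblast list (6 of 7 detected, Lum at 0) summed to 8.91 to 165 CPM in CTC and 18.2 to 75.9 CPM in PT. It was led by Col3a1 with 3904 counts over the 6 libraries. Pdgfra (2720) or Dcn (2144) was higher in CTC replicates 1 and 2 and PT replicates 1 and 2. Col1a1 and Col1a2, of the same list, had only 113 and 35 counts over the 6 libraries. The platelet list (4 of 6 detected, Gp6 and Gp1bb at 0) summed to 4.04 to 18.9 CPM in CTC and 2.49 to 8.32 CPM in PT, led by Ppbp with 712 counts, although Itga2b (387) was higher in CTC replicate 3 and PT replicate 1, while Pf4 had at most 3 counts.

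In all these lists detected means any count, also one under the floor. The adipocyte list (4 of 5 detected, Lep at 0) reached 349 CPM in CTC replicate 3, nearly all Fabp4, and at most 2.19 CPM elsewhere. Adipoq, counted as detected, had 2 counts in PT replicate 3 and 0 in the other libraries. The macrophage list (3 of 6 detected, with Adgre1, C1qa and C1qb at 0) summed to 3.79 to 23.5 CPM in CTC and 1.16 to 4.76 CPM in PT. It was led by Csf1r with 686 counts, although Cd68 (474) was higher in CTC replicate 3 and in all PT libraries. Lyz2, counted as detected, had 1 count. The neutrophil list (3 of 6 detected, Ly6g, Retnlg and Mmp8 at 0) summed to 0.746 to 26.4 CPM in CTC and 4.23 to 18.1 CPM in PT, mostly S100a8. Each of these sums lay below Cd63 in the 6 libraries, and below Cd9 except for the adipocyte sum in CTC replicate 3. Set against Cd81, which was lower, the fibroblast sum was the larger in 5 of 6 libraries (all but CTC replicate 1). Col1a1 and Col1a2 added at most 1.78 and 0.843 CPM to that sum. The adipocyte sum was larger than Cd81 in CTC replicate 3, the macrophage sum in CTC replicate 2 and the neutrophil sum in PT replicate 2. The platelet sum was larger in 0 libraries. Their part in the tetraspanin levels was not tested.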

How the data were processed

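Gene-level read counts of 6 libraries (3 CTC, 3 PT) were used as deposited by the authors. Each column was matched to its sample by the name in the sample's description. Per the labels' protocols, 100 ng of total RNA entered an mRNA library kit. Per the submitters' processing notes, reads were handled with HISAT2 and the builds listed are GRCm38 and mm10. Not given in the sources used here were the read counter, its annotation and any strand setting. Of 54409 genes also in GENCODE M21 (GRCm38), 98.3% had the same start and end, as had the 7 members. All 7 matched the RefSeq promoter table by symbol, and no protein sequences were used here.

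The members and lists were chosen with earlier results of these data known. edgeR 4.0.16 (R 4.3.3) fitted group only, with TMM scaling, filterByExpr and Benjamini-Hochberg adjustment over 13874 genes. Standard errors came from the F statistic of each gene. DESeq2 1.42.0 and limma 3.58.1 (voom) were alternatives, and all 3 were tested on simulated counts. A prior count of 2 entered log2 CPM, and TPM used the deposited gene length. Intervals took in the spread between the libraries of a group, as fitted by edgeR, but not a difference in handling between the groups. The floor reflects counting only, and reads were not counted by molecule. No pair of libraries agreed within sampling noise (chi-square per degree of freedom at least 168 within groups).

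Per the labels, each PT library is matched to the CTC library of its number and the series' design names matched mice, so the numbers pair the groups. Across genes, the 2 libraries of a mouse deviated from the means of their groups with correlations of -0.015, 0.157 and 0.298. The rule for named genes took all members, the 5 highest and the 3 largest differences each way in the rest of the family, the 3 leukocyte tetraspanins, the 3 largest each way in the partner and vesicle lists, the 5 genes most like Tspan11 and Tspan8, the nearest genes where a neighbourhood deviated by over 0.5, and the top gene of each marker list. Transcript GC content came from GENCODE M21 and its trend was removed by lowess in an alternative added after seeing the data.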

Additional observations from a re-analysis of the deposited data

How the results depend on the processing

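Over all genes the count of calls was 0 in edgeR and stayed 0 with the replicate block, limma-voom, RLE or upper-quartile scaling, a filter of 1 CPM in 3 libraries, GC correction with or without the block (both chosen after seeing the data), and without each library or matched pair. It was 89 in DESeq2, 242 in DESeq2 with the replicate block and 199 in edgeR without a filter. In the tetraspanin family it was 0 in edgeR, 1 in DESeq2 and 1 without a filter (Tspan11 lower in both), and 1 in DESeq2 with the replicate block (Tspan13 higher, Tspan11 not called). In the partner and the vesicle lists it was 1 each in DESeq2 with the replicate block (Itgb4 and Flot1, lower). The causes of these differences were not tested. Over 19 alternatives Tspan11 ranged from -4.30 to -2.17 on the log2 scale, Cd9 from -0.95 to -0.61, Cd151 from -1.53 to -0.45, Cd81 from -1.21 to -0.08 and Cd82 from 0.17 to 1.08, each with 1 sign. Cd63 ranged from -0.44 to 0.34 and kept its sign in 9 of 19. By CPM without length, Cd63 led Cd9 and Tspan11 led Cd82. Depth limits Tspan8 alone among the members.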

Other observations

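The gene most like Cd151 over the 6 libraries was Erbb2, which encodes the HER2 receptor tyrosine kinase. It was singled out after its values were seen. Erbb2 was at 59.3, 78.2 and 128.5 CPM in CTC replicates 1, 2 and 3 and at 235.5, 155.6 and 126.9 CPM in PT, and its log2 CPM correlated with that of Cd151 at 0.9997 (Pearson, n = 6 libraries, which share depth and composition). The genes lie on different chromosomes, 11 and 7. Of 9395 protein-coding genes, 87 exceeded 0.95 with Cd151, and the next highest, Ctf1, was at 0.9966.

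Cd81 and Cd82 both differed more between mice than between sources. The highest Cd81 library of a group was 4.38 times the lowest in CTC and 5.77 times in PT, and for Cd82 these ratios were 4.46 and 5.32. The mouse with the lowest level was mouse 2 for Cd81 and mouse 3 for Cd82, in both groups. Cd9, in contrast, had ratios of 1.37 in CTC and 1.15 in PT.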
